A study of Arabidopsis thaliana and Arabidopsis lyrata subsp. lyrata with 12 samples.

Results

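The mitochondrial genome of *A. thaliana* and its large nuclear copy on chromosome 2 were followed through heat stress (HS) and recovery. The members were the loci of the gene table whose identifier starts with ATMG, and the chromosome 2 loci with identifiers from AT2G07667 to AT2G07835 except AT2G07690, compared as numbers. They amount to 262 of 32678 loci, of which 146 lie on the mitochondrial genome and 116 were taken by chromosome 2 identifier. The plants were Col-0, grown on soil for 3 weeks with 16 h of light at 21 °C and 8 h of dark, in which the study's methods give a cooler temperature, and RNA came from rosette leaves. Control plants stayed under these conditions, HS plants were held at 37 °C for 6 h, and recovery plants had the same HS followed by 48 h under control conditions. Each condition had 2 libraries. No source used here says whether these came from separate sets of plants, so p-values measure only the spread between libraries. The same controls served both comparisons, and recovery cannot be told apart from 48 h of further growth.

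Plant mitochondria keep a small genome of their own, which encodes ribosomal RNAs, some ribosomal proteins, factors for cytochrome c assembly and core subunits of the respiratory chain and the ATP synthase. Most other mitochondrial proteins are encoded in the nucleus and imported. Pieces of organelle DNA have also moved into nuclear chromosomes, and the Col-0 copy near the centromere of chromosome 2 is a well-known large example. Unlike nuclear mRNAs, plant mitochondrial transcripts do not carry stable poly(A) tails, and added tails mark them for decay. The kit used for these libraries selects polyadenylated RNA, so a read count here is a measure of polyadenylated or carried-over RNA, and more RNA cannot be told apart from more tailed RNA or from more mitochondria per cell.

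The nuclear copy spanned 270728 bp, chr2:3239038-3509765, in the TAIR10.1 assembly. Of these bases, 99.2% lay inside windows of 100 bases, the length of a read, that were identical to the mitochondrial genome of the same assembly. Conversely, 67.5% of the windows of the mitochondrial genome, which is 367808 bp long, recurred in the insertion, and 0.957% recurred elsewhere on chromosomes 1 to 5. The study mapped its reads to TAIR10, whose mitochondrial sequence was not available here. The windows therefore describe TAIR10.1 and do not show where the counted reads were placed. Of the 116 loci taken by identifier, 101 lay inside the stretch and 15 lay outside it. The sequences below, from RefSeq TAIR10.1, show why counts on both genomes have to be read side by side. The first pair is the start of *atp8*, a subunit of the ATP synthase, on both genomes, with the start codon in capitals.
atp8, mitochondrial genome, chrM:247433-247492, minus strand: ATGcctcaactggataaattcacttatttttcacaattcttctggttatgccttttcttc
atp8, insertion, chr2:3386292-3386351, plus strand: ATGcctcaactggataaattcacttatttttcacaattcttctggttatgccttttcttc
The 60 bases are the same on both. The second pair is a site in *rpl2*, a protein of the large ribosomal subunit, where a single base, in capitals, separates the genomes.
rpl2, mitochondrial genome, chrM:221774-221834, minus strand: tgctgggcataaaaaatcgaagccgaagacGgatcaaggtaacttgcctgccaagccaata
rpl2, insertion, chr2:3411956-3412016, plus strand: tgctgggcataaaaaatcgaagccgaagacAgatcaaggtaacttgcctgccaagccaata
Counted from 1 at the 5′ end of the stretch shown, with the mitochondrial base first, the difference is G31A. Among 15 mitochondrial genes with a copy in 1 insertion locus, *rpl2* was the gene in which such single-base sites were found, with 2 sites. The start of *cox1*, the catalytic core subunit of cytochrome c oxidase, is shown because it had 0 places in the insertion.
cox1, mitochondrial genome, chrM:116286-116345, minus strand: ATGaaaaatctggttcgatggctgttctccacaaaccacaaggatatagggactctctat
In the TAIR10.1 assembly, these 60 bases have no identical place in the insertion, and places with mismatches were not searched for.

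Mitochondrial loci took a larger share of the reads after HS than in control or recovery. They held 0.012% and 0.0192% of the reads of the control libraries, 0.107% and 0.238% of the HS libraries, and 0.0105% and 0.011% of the recovery libraries. Both HS libraries were above every other library, and the mean share after HS was 11.0 times that of control. The HS libraries differed from each other by 2.23 times, the control libraries by 1.6 times and the recovery libraries by 1.05 times. Insertion loci inside the stretch held 0.000976% and 0.00161% in control, 0.022% and 0.0402% after HS, and 0.000645% and 0.000468% in recovery, with a mean after HS 24.0 times that of control. Because the same read can be counted at both copies, the shares of the genomes were not added. The summed share of plastid loci, the other organelle genome, went the other way: 0.588% and 0.797% in control, 0.179% and 0.287% after HS, and 0.271% in both recovery libraries. Single plastid loci were mixed: of 55 tested by edgeR, 7 were called higher after HS, 26 lower and 22 were not called. Of all loci tested, 34.9% were called higher and 39.5% lower. No test was run on the shares of library reads, since 2 libraries against 2 cannot give a two-sided exact p under 0.333.

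**Figure D1:**
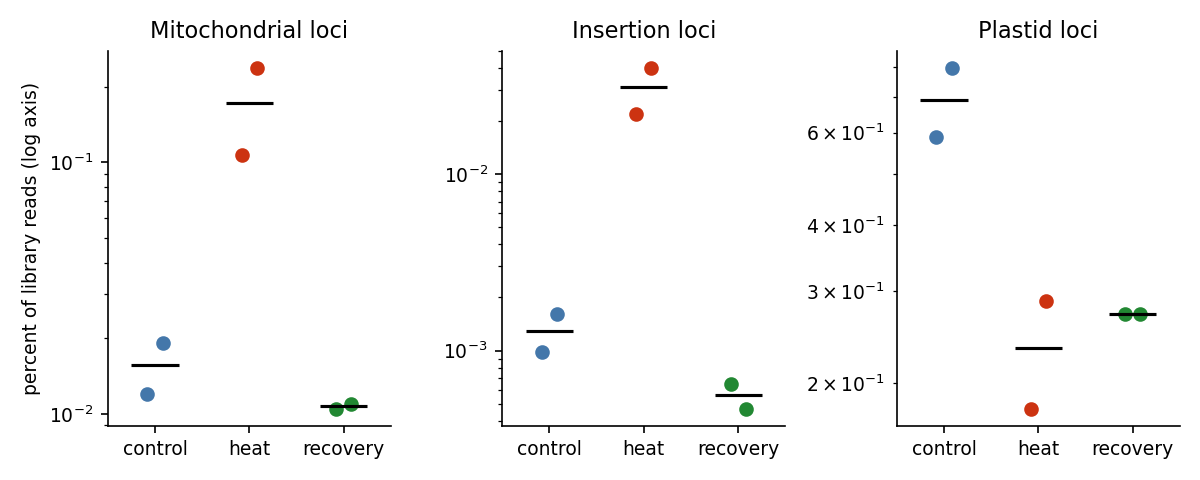
Percent of all counted reads per library (log axis, a separate range in each panel) held by mitochondrial loci, insertion loci inside the stretch and plastid loci, with points for the 2 libraries of each condition and a line at their mean. The HS points of the mitochondrial panel, at 0.107% and 0.238%, lie above the other 4 libraries, and those of the plastid panel lie below both controls.

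Total counts per library ran from 9624503 to 45254555, and HS replicate 2 was the deepest. The heat response was present in both HS libraries: the chaperone gene *HSP101* had 124 and 196 reads in control, 15862 and 73951 after HS, and 97 and 101 in recovery. The controls differed in other heat genes: *HSP18.2* had 764 and 68 reads and *HSFA2* 22 and 5, higher in control replicate 1, the shallower library. The leaf genes *CAB1*, *RBCS1A* and *RCA* were read at high depth in every library, while the root hair genes *RHD6* and *EXPA18* had no read and *EXPA7* had 2. *PYK10*, a gene of roots and seedlings, was read in every library. Of 5 flower and meristem genes, all low, 4 were tested and called higher after HS, where 34.9% of all loci were, and 1, *PI*, was also called higher in recovery (12 and 17 reads in control, 31 and 116 after HS, 37 and 33 in recovery; log2 fold change 2.09, edgeR adjusted p = 0.0316). *STM* had 39 and 0 reads in control and 42 and 190 after HS. The part of these cell types in the results was not tested. Scaling moved the median log2 fold change of all loci tested from -0.12 with TMM factors to -0.87 with library totals in the HS comparison, and changes are given relative to TMM.

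Of the 146 mitochondrial loci, 25 had no read, among them all 21 loci under 100 bp, shorter than a read, 52 had reads but were too low to test, and 69 were tested. The 52 held 1143 reads after HS, 28 in control and 5 in recovery. All 69 tested loci were called higher after HS, against 34.9% of all loci tested, with both HS libraries above both controls in CPM, as for 40.1% of all loci, and none was called lower, at an unadjusted p under 0.05, by edgeR or by DESeq2. Many of the 69 passed the low count filter through the HS libraries, so this count is a description and not support. The loci with at least 10 reads in every library bear on this directly: there were 10, all 10 were called higher in a fit confined to such loci, and their log2 fold changes ran from 2.46 to 4.47, while 34.7% of all loci in that fit were called higher. The median log2 fold change of the 69 was 5.34, or 5.33 with loci lacking control reads set at their lower bound, and of all loci tested it was -0.12. It was 6.35 without control replicate 2, 4.65 without HS replicate 2, and 3.69 over the 10 loci read in every library.

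The ribosomal RNAs held most mitochondrial reads in every library, from 53.2% in HS replicate 1 to 72.0% in recovery replicate 1. *rrn18*, the RNA of the small ribosomal subunit, had 383 and 1561 reads in control, 3010 and 35483 after HS, and 405 and 444 in recovery. Both HS libraries were above all others in reads, and the log2 fold change was 4.45 ± 0.53 (SE; edgeR adjusted p = 0.00014). *rrn26*, the large subunit RNA, had 656 and 2171 reads in control, 2432 and 28988 after HS, and 371 and 378 in recovery, with a log2 fold change of 3.58 ± 0.47 (adjusted p = 0.000236). In raw reads HS replicate 1 was close to control replicate 2, which was sequenced more deeply. *rrn5*, the small 5S RNA, had 1 and 13 reads in control and 11 and 203 after HS, and its call (log2 fold change 4.00 ± 0.75, adjusted p = 0.00171) was lost without HS replicate 2, at an adjusted p of 0.0588. Per kb of locus span, *rrn26* was at 21.2 ± 8.26 CPM (reads scaled to a common library size by TMM) in control and *rrn18* at 18.9 ± 9.83 (SD, n = 2). Both were read in the same libraries, so this spread between libraries does not measure the difference between the genes, which was not tested. In the TAIR10.1 assembly, none of the ribosomal RNAs has a window in the insertion.

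Complex I, which takes electrons from NADH, was the largest class, with 12 of 14 loci tested. All 12 were called higher after HS, where 34.9% of all loci tested were, with a median log2 fold change of 5.08. Class counts here and below are descriptions, since many members passed the low count filter through the HS libraries. *nad7* had 58 and 140 reads in control, 276 and 2309 after HS, and 31 and 38 in recovery, with a log2 fold change of 3.87 ± 0.31 (adjusted p = 1.69e-05). *nad4* had 41 and 118 reads in control, 358 and 3341 after HS, and 25 and 28 in recovery, and rose by 4.67 ± 0.38 (adjusted p = 1.8e-05). Both genes were read in every library, and their HS reads exceeded those of every other library. The part of *nad5* at ATMG00060 had 140 and 193 reads in control, 236 and 2240 after HS, and 38 and 59 in recovery, with the smallest increase of the class, 2.94 ± 0.36 (adjusted p = 0.000159). *nad6* had 0 reads in both controls and both recovery libraries and 46 and 492 after HS. Against a limit of 3 reads over the control group this was at least 230-fold higher. The rest of the class went from 2.99 for the *nad2* part at ATMG01320 to 6.39 for the *nad1* part at ATMG00516. The *nad5* part at ATMG00665 had no read, and the *nad1* part at ATMG01275, with 0 and 1 reads in control and 7 and 63 after HS, was too low to test.

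All 3 subunits of cytochrome c oxidase (complex IV), which passes electrons to oxygen, rose after HS. *cox1* had 9 and 28 reads in control, 210 and 1867 after HS, and 4 and 9 in recovery, a log2 fold change of 5.94 ± 0.42 (adjusted p = 9.54e-06). *cox2* had 46 and 173 reads in control, 328 and 2675 after HS, and 32 and 34 in recovery, a log2 fold change of 3.99 ± 0.37 (adjusted p = 3.4e-05). *cox3* rose by 4.87 ± 0.58 (adjusted p = 0.000139) from 2 and 7 reads in control to 20 and 231. Per kb, *cox2* was higher than *cox1* in control, at 1.95 ± 0.92 against 0.454 ± 0.158 CPM, while after HS they stood at 32.0 ± 13.3 and 29.1 ± 13.7. The spread is between libraries that hold both genes, and the difference between the genes was not tested. *cob*, the cytochrome b of complex III, rose by 4.99 ± 0.54 (adjusted p = 8.8e-05), from 2 and 6 reads to 26 and 203.

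The 6 loci of the ATP synthase, the rotary enzyme that makes ATP, were all tested. All 6 were called higher, where 34.9% of all loci tested were, with a median log2 fold change of 5.24. *atp1*, the alpha subunit, had 12 and 32 reads in control, 362 and 3571 after HS, and 6 and 3 in recovery. Its log2 fold change, 6.56 ± 0.46 (adjusted p = 8.48e-06), was the largest of the class. *atp9*, the ring subunit, had 8 and 26 reads in control, 102 and 1007 after HS, and 3 and 3 in recovery, and rose by 5.14 ± 0.44. *atp8* rose by 4.66 ± 0.46, *atp4* by 5.34 ± 0.56, and the *atp6* copies, which carry the proton channel, by 5.85 ± 0.35 at ATMG00410 and 5.05 ± 0.47 at ATMG01170. The class summed to 2.86 ± 1.07 CPM in control and 162 ± 77.3 after HS (SD, n = 2).

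The genes for expression and assembly went the same way. All 7 ribosomal protein loci were called higher, where 34.9% of all loci tested were. Their log2 fold changes ran from 2.66 ± 0.33 for *rpl2* (52 and 92 reads in control, 82 and 758 after HS) to 6.58 ± 0.48 for *rpl16* (4 and 8 reads in control, 104 and 986 after HS). *rps3*, of the small subunit, had 73 and 189 reads in control, 399 and 3799 after HS, and 41 and 47 in recovery, with a log2 fold change of 4.12 ± 0.36 (adjusted p = 2.75e-05). *rpl2* thus had the smallest increase of the 69 loci, and its HS replicate 1 count in raw reads lay between those of the controls. Of 5 loci for cytochrome c maturation, which attach heme to c-type cytochromes, 4 were tested and called higher, to be read against the same 34.9%. Among them was *ccmFC* (9 and 46 reads in control, 88 and 766 after HS), and *ccmC* was too low to test. *mttB*, a subunit of a protein transporter, rose from 0 and 1 reads to 10 and 58, a pooled ratio of 87.3 whose counting interval has a lower end of 15.2. The intron maturase *matR* lies within another locus of the table and had no read, as had all 10 loci nested in another member.

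Of the 105 mitochondrial loci outside these classes, 32 were tested. All 32 were called higher, where 34.9% of all loci tested were, with a median log2 fold change of 5.60. The loci with most reads were ATMG00030, ATMG00690 and ATMG01200. ATMG00030 had 31 and 100 reads in control, 141 and 1722 after HS, and 11 and 29 in recovery (log2 fold change 3.92 ± 0.52, adjusted p = 0.000245). ATMG00690 had 0 and 18 reads in control and 126 and 1166 after HS. ATMG00170 and ATMG00620 had the same 6 counts, 1 and 2 in control, 95 and 640 after HS and 1 in each recovery library, and a ratio of 315 with a lower end of 107. These carry one set of counts, although both enter the counts of loci tested and called. ATMG00440 and ATMG01140 also shared their counts, 0 in both controls and both recovery libraries and 8 and 63 after HS, at least 30.4-fold higher, and DESeq2 did not call them, at an adjusted p of 0.154.

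**Figure D2:**
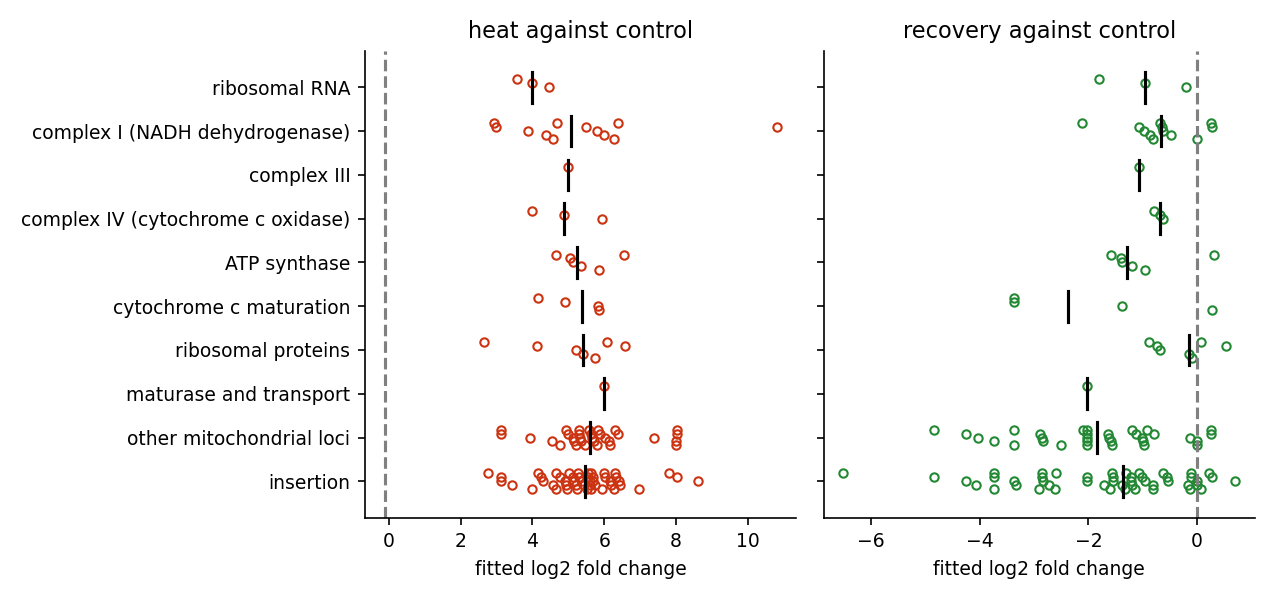
Fitted log2 fold changes of tested mitochondrial loci and insertion loci inside the stretch, by class, in HS against control (left) and recovery against control (right). Circles are loci, black ticks class medians, and the dashed line is the median of all loci tested, -0.12 on the left and 0.00 on the right. AT2G07680, outside the stretch, is not drawn. Every circle on the left lies above 2, and fitted values of loci without a control or recovery read depend on the prior count.

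In the insertion, 24 of the 101 loci inside the stretch had no read, 29 were too low to test, and 48 were tested. All 48 were called higher after HS, where 34.9% of all loci tested were, with a median log2 fold change of 5.48. Only 2 of the 48 had at least 10 reads in both control libraries, so most passed the filter through the HS libraries and the count is a description. With at least 10 reads asked of every library, 1 locus taken by identifier was left, AT2G07680, which lies outside the stretch. That fit therefore tested none of the 48. AT2G07698, annotated as an alpha subunit of the F1 ATPase, held most reads, 21 and 71 in control, 588 and 5551 after HS, and 11 and 4 in recovery, with a log2 fold change of 6.18 ± 0.46 (adjusted p = 1.13e-05). AT2G07715, which carries the *rpl2* copy, had 24 and 53 reads in control, 69 and 692 after HS, and 9 and 9 in recovery (3.42 ± 0.38, adjusted p = 9.78e-05). AT2G07671, with the *atp9* copy, had 8 and 18 reads in control, 76 and 646 after HS, and 3 and 4 in recovery. AT2G07739 rose from 4 and 10 reads to 64 and 572, and AT2G07722 from 1 and 1 to 60 and 378. AT2G07795 had 0 reads in all control and recovery libraries and 18 and 79 after HS, at least 41.5-fold higher.

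Of the 15 loci taken by identifier but lying outside the stretch, 12 had no read and 1 was tested. AT2G07680, annotated as a multidrug resistance-associated protein, lies at chr2:3514745-3522491 with 0% of its windows identical to the mitochondrial genome. It had 190 and 457 reads in control, 11 and 58 after HS, and 231 and 198 in recovery, and fell by 2.84 ± 0.23 on the log2 scale (adjusted p = 1.63e-05), where 39.5% of all loci tested were called lower. Both HS libraries were below both controls, as for 45.7% of all loci, and in recovery against HS the locus was called higher, as were 39.2% of all loci tested. AT2G07750, annotated as an RNA helicase, had 1 and 2 reads in control, 4 and 29 after HS, and 3 and 0 in recovery, and was named after its values were seen.

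Several copies had the same counts as their mitochondrial partners. For *atp8* and AT2G07707 the 6 counts were equal, 4 and 16 in control, 45 and 412 after HS, and 2 and 2 in recovery. For *ccmC* and AT2G07771, a pair named after its values were seen, they were also equal, and *rps12* and AT2G07675 differed by 1 read in HS replicate 2. Of 66 insertion loci with at least 20 reads, 5 (7.58%) shared all 6 counts with a mitochondrial locus, while 32 of 19889 other loci (0.161%) shared theirs with another. The other loci were not matched for depth, so 0.161% is not a chance rate for the insertion loci. AT2G07702, 1 of the 5, had 0 reads in every control and recovery library. Over 15 pairs the insertion locus held 0.578 to 2.24 times the reads of its partner, and the annotated spans differ. *atp1* had 3986 reads over the libraries and AT2G07698 had 6246. The counts alone do not tell reads of the insertion and of the mitochondrial genome apart at these loci. Single-base sites were found in *rpl2*, but a count does not show which base a read carried.

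**Figure D3:**
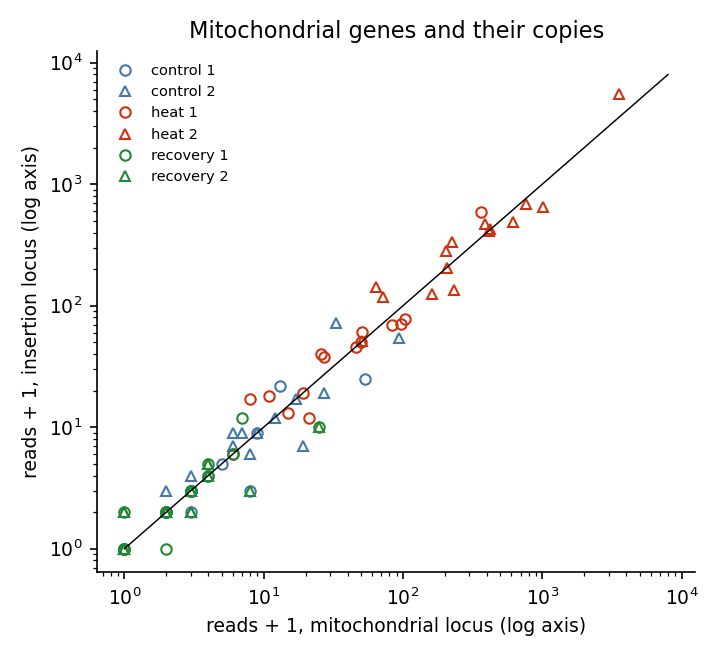
Reads plus 1 at 15 mitochondrial genes (horizontal, log axis) and at the insertion locus holding their copy (vertical, log axis), with 1 point per pair and library and a line of equality. Points lie along the line, at totals from 0.578 to 2.24 times the partner's, with HS libraries at the upper end.

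Some genes have few or no identical windows in the insertion as assembled in TAIR10.1. A nuclear copy missing from that assembly, or a copy that differs in sequence, would not be seen here. Of the named genes, 12 had under 5% of their windows in the insertion. All 12 were tested and called higher after HS, where 34.9% of all loci tested were, with a median log2 fold change of 4.68 and a range from 2.94 to 6.28. They include the ribosomal RNAs, *cox1*, *cox2*, *atp4*, *nad4L*, *nad9*, *ccmB* and *rps3*. Only *rrn26*, *rrn18*, *cox2*, *rps3* and the *nad5* part at ATMG00060 had at least 10 reads in every library, at 3.58, 4.45, 3.99, 4.12 and 2.94. Others, such as *nad4L* with 0 and 3 control reads, passed the low count filter through the HS libraries, so the count of 12 is a description. The 23 tested genes with at least 80% of their windows in the insertion had a median of 5.14. One of the 12, the *nad1* part at ATMG01120, has 11.9% of its windows elsewhere in the nucleus. No insertion locus inside the stretch had under 71.0% of its windows shared, among those tested, so the nuclear copy could not be measured on its own.

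**Figure D4:**
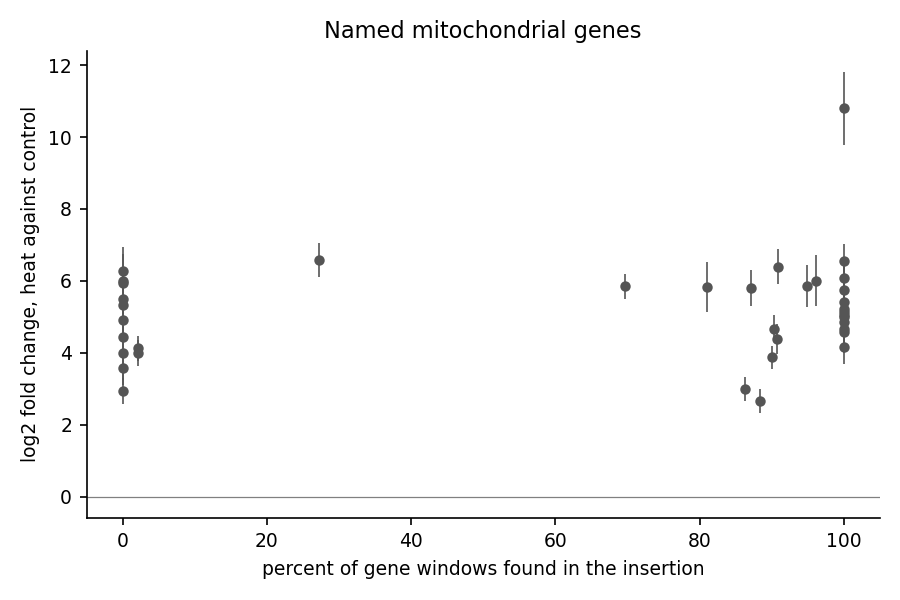
Log2 fold change in HS against control (vertical, bars are standard errors) against the percent of a gene's windows found in the insertion (horizontal) for the tested named mitochondrial genes. Genes at 0% lie between 2.94 and 6.28, within the range of genes at 80% or more.

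In recovery no mitochondrial locus was called against control. Of the 69 tested loci, 0 were called higher and 0 lower against control, where 1.34% and 0.766% of all loci tested were called. DESeq2 also called none, and at an unadjusted p under 0.05 edgeR gave 1 locus, the *nad5* part at ATMG00060 (log2 fold change -0.98 ± 0.42, edgeR adjusted p = 0.229), where 10.6% of all loci were lower at that threshold. The log2 fold change was -0.95 ± 0.44 for *rrn26* and -0.20 ± 0.48 for *rrn18*, and -0.64 ± 0.38 for *nad7*. Over all mitochondrial loci the summed level was 86.2 ± 3.24 CPM in recovery and 136 ± 50.6 in control (SD, n = 2). Of the tested loci, 28 had both recovery libraries below both controls and 3 had both above, where 25.9% and 26.7% of all loci did. Their median log2 fold change was -1.02, or -0.91 over the 48 with more than 3 reads in either condition, with limits for 0 reads. Only 11 of the 69 had at least 10 reads in both controls, which limits what could be called. In the insertion none of the 49 tested loci taken by identifier was called. At an unadjusted p under 0.05, 3 were lower, AT2G07667, AT2G07787 and AT2G07815, a share below the 10.6% of all loci. Both recovery libraries lay below both controls in 23 of the 49 and above in 0, to be read against 25.9% and 26.7% of all loci. The median log2 fold change was -1.33, or -1.11 over the 34 with more than 3 reads in either condition, with limits for 0 reads. AT2G07815, annotated as a cytochrome c biogenesis protein, had 6 and 24 reads in control, 36 and 397 after HS, and 0 in both recovery libraries (adjusted p = 0.129), and DESeq2 called it lower at an adjusted p of 0.0189. AT2G07667 was chosen after its values were seen. Without control replicate 1, 4 mitochondrial and 4 insertion loci were called lower, where 14.6% of all loci tested were. Against HS, all 69 mitochondrial loci and all 48 insertion loci inside the stretch were called lower in recovery, where 34.1% of all loci were. Both recovery libraries lay below both HS libraries in each, as for 42.2% of all loci. Many of these loci passed the low count filter through the HS libraries, so these counts too are a description and not support. No recovery read was found for 20 of the 69 and 16 of the 48. DESeq2 did not call the decrease of *nad6* (adjusted p = 0.0669) or of ATMG00440, ATMG01140 and AT2G07702 (adjusted p = 0.205).

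Nuclear genes for mitochondrial proteins moved by less. Of 18 nuclear subunits of the respiratory chain and ATP synthase, 16 were called higher after HS (34.9% of all loci tested), 1 lower (39.5% of all loci) and 1 was not called, with a median log2 fold change of 0.84. *CYTC-2*, a cytochrome c, had 340 and 511 reads in control, 924 and 4072 after HS, and 207 and 233 in recovery, and rose by 2.87 ± 0.14 (adjusted p = 1.53e-06). *SDH1-1*, of complex II, which has no subunit among the mitochondrial classes here, fell by 0.36 ± 0.12 on the log2 scale (adjusted p = 0.024). Of 8 nuclear genes for mitochondrial DNA and RNA, 6 were called higher, 1 lower and 1 was not called, to be read against the same shares of all loci. The phage-type RNA polymerases that transcribe the organelle genome rose, *RPOTm* by 1.90 ± 0.14 and *RPOTmp* by 2.00 ± 0.12. The DNA polymerases *POLIA* and *POLIB* rose by 1.96 ± 0.17 and 2.62 ± 0.10, and *mtPNPase*, an exonuclease that removes tailed mitochondrial RNA, rose by 2.36 ± 0.21. *MSH1*, which guards the organelle genome against recombination, fell by 0.74 ± 0.22. None of the 8 was called in recovery against control, and 3 were higher at an unadjusted p under 0.05, where 11.2% of all loci were.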

How the data were processed

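RNA of 6 *A. thaliana* libraries was used, of 12 in the series. Per the study's methods, the authors trimmed 100-base single-end reads, mapped them to TAIR10 with tophat2 and took gene counts from Qualimap; the submitters' processing notes also name FastQC. The deposited values are raw counts per gene. How reads with several places entered gene counts is not given in the sources used here, and the libraries carry no strand. All 10 members nested in another member have no read, so a count of 0 there is not a measured absence. A further 6 columns of per-sample values, headed RPKM, were not used.

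Counts were fitted in R 4.3.3 with edgeR 4.0.16 (quasi-likelihood, TMM, filterByExpr with minimum count 10 and minimum total 15), all 6 libraries together with 3 residual degrees of freedom, over 18536 loci, with Benjamini-Hochberg adjustment at 0.05. The standard error is the log2 fold change over the square root of F. DESeq2 1.42.0, other scalings and filters, a replicate block and leaving out each library were alternatives. The script was tested on simulated data. Members and lists were chosen with earlier results of these data known. Named loci were up to 3 of each class with the highest CPM and every called class member; the 5 with most reads and up to 3 of the largest called changes each way among other mitochondrial and insertion loci; and up to 8 copy pairs. Names of 41 mitochondrial loci were matched to RefSeq TAIR10.1 by span within 3 bp (29) or by a neighbour (12), because no annotation used here pairs the identifiers. Chromosome 2 starts lay within 1578 bp of RefSeq. Intervals and limits (3 reads for 0) are at 95% and cover counting error only. Totals ran from 9624503 to 45254555 reads.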

Additional observations from a re-analysis of the deposited data

How the results depend on the processing

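With no low count filter, 111 of 121 mitochondrial loci and 76 of 80 insertion loci taken by identifier were called higher after HS. Of all loci in that fit, 28.6% were. In recovery against HS, 104 of the 121 and 74 of the 80 were called lower, where 27.6% of all loci were. With at least 10 reads in every library, 10 mitochondrial loci were tested. All 10 were called higher after HS and lower in recovery against HS, where 34.7% and 34.0% of all loci in that fit were. No locus inside the stretch was left to test. The 1 locus taken by identifier that was left, AT2G07680, was called lower after HS and higher in recovery against HS, where 38.8% and 38.1% of all loci were. In recovery against control, mitochondrial loci called lower numbered 2 with no filter (*rrn26* and the *nad5* part at ATMG00060) and 0 to 4 when a library was left out, where 3.42% of all loci were called lower with no filter, 14.6% without control replicate 1 and 18.4% without control replicate 2. For insertion loci they numbered 2 with no filter, 1 with DESeq2 (AT2G07815; 2.2% of all loci) and 0 to 4 when a library was left out, and 0 to 1 were called higher. The 4 mitochondrial loci without control replicate 1 were *rrn26*, *cox2*, *ccmFC* and ATMG01090, the last chosen after its values were seen. The insertion loci were AT2G07698, AT2G07787, AT2G07815 and AT2G07706, the last also chosen after its values were seen, and the locus called higher, without control replicate 2, was AT2G07680. Replicate numbers did not pair the libraries (correlations of replicate differences -0.02, -0.05 and 0.03 over 18536 loci). The replicate block gave the same counts, 69 mitochondrial loci and 48 insertion loci higher after HS, where 34.8% of all loci were. It called 0 of them in recovery against control, where 0.324% of all loci were called higher and 0.162% lower. With library totals the counts were also 69 and 48, where 18.4% of all loci were called higher, and the median log2 fold change of mitochondrial loci was 4.62. DESeq2 called 84 of 103 mitochondrial loci and 65 of 75 insertion loci taken by identifier higher after HS, where 30.8% of all loci were. In recovery against HS it called 81 of the 103 and 63 of the 75 lower, where 30.2% of all loci were. Of the 63 named loci, none reversed in HS against control or recovery against HS, while 4 lost their call in each: ATMG00440, ATMG01140 and AT2G07702 with DESeq2 in both, *rrn5* without HS replicate 2 in the first and *nad6* with DESeq2 in the second. Named loci were chosen largely by high levels or large calls, so their losses do not stand for all members. Counts under about 10 reads limit most control and recovery values.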
